A study of Gallus gallus with 27 samples.

Results

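The subject is a set of 1788 chromatin intervals that were more accessible in reporter-negative cells of the chick vagal region than in both sorted neural crest populations, at each of 2 embryonic stages. They were chosen from the 140062 intervals of one count table, of which they make up 1.28%. Read counts per 1000000 reads (CPM) were computed from the column totals, averaged over the 3 libraries of a group, and 1 CPM was added. An interval became a member where the negative value was at least 2 times the value of double-positive and of E2-only cells, at Hamburger-Hamilton stage 18 (HH18) and again at stage 25 (HH25). The members were therefore chosen on the same values that describe them below, and these 4 ratios carry no test.

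Neural crest cells arise at the border of the neural plate, leave the dorsal neural tube and migrate through the embryo. Those of the vagal level populate the gut as enteric neurons and glia and contribute to the outflow region of the heart. Promoters and enhancers in use are usually depleted of packed nucleosomes, and ATAC-seq reads this openness from the sites at which a transposase can insert adapters. Openness alone names neither the gene an element serves nor the cell type that uses it.

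Wild-type chick embryos were electroporated at HH8 to 9 with the reporters NC2:citrine and E2:citrine, which all groups received, and cells were sorted by fluorescence from dissected vagal regions. NC2 and E2 are enhancers of the neural crest genes FOXD3 and SOX10. The double-positive cells carried both signals, the E2-only cells were E2-positive and NC2-negative, and the labels call the cells without either signal a negative control. Each of these 3 populations was taken at HH18 and at HH25 with 3 biological replicates, so that 18 libraries are described; the HH10 groups are not analysed here. Both reporters are given as citrine, and the labels do not say how the sorter distinguished them. Electroporation reaches only some cells, so a negative cell is one without reporter signal and not necessarily one outside the crest. The negative cells are a mixture of the tissues of the dissected region. In such bulk libraries a change in the share of one cell type and a change in accessibility within a cell type cannot be told apart. The intervals carry no gene names in the table, and no genome or annotation of its build (galGal5) was used here, so markers of tissues could not be read, and an interval is identified here only by its coordinates.

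HH18 negative replicate 2 was the shallowest library, with 992341 reads; the other totals were 2586375 to 6976050. The floor of 3 counts was worth 3.02 CPM there and 0.430 CPM at the greatest depth, and covers counting error only, since amplified reads are not independent molecules. The lowest deposited count was 1 and may stand for 0 reads. All 1788 members were 200 bp wide, and all of them were among the 134020 intervals that passed the filter on low counts.

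In negative cells the members were well above the typical interval. Their median was 12.5 CPM at HH18 and 10.6 CPM at HH25, where the medians of all intervals were 3.99 and 4.20 CPM. In double-positive cells the members' median was 1.32 CPM at HH18 and 1.75 CPM at HH25, and in E2-only cells it was 0.975 and 1.70 CPM. All intervals had medians of 3.70 and 4.33 CPM in double-positive cells and of 3.56 and 4.57 CPM in E2-only cells. The members thus lay above the middle of the table in one population and below it in the other two, as the rule required of their ratios but not of their absolute levels.

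The working description of these intervals as closed in the crest was not tested here. The rule caps crest means by the negative ones, which favours low crest levels. A level at or below the median of all intervals also need not be closed. At 1500 members (83.9%) all 4 crest group means were at or below the median of all intervals in that group. At 288 members (16.1%) at least 1 crest group was above that median, and at 40 (2.24%) all 4 were. The share of intervals at the floor was lower at HH25, for members and for all intervals alike: 307 members (17.2%) had all 3 HH18 double-positive libraries at or below the floor of 3 counts, against 4.24% of all intervals, and 134 members (7.49%) did at HH25, against 1.51%. For E2-only cells these counts were 239 (13.4%) at HH18, against 2.91% of all intervals, and 49 (2.74%) at HH25, against 0.511%. Members are therefore called intervals higher in negative cells, and not closed intervals, in what follows.

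**Figure D1:**
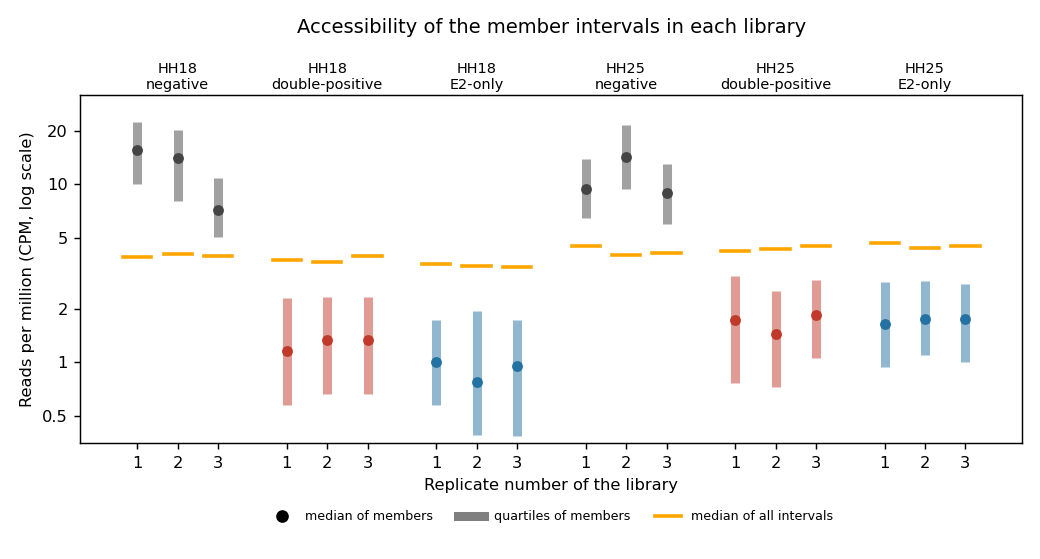
CPM (log scale) in each of the 18 libraries; points are medians and bars quartiles over the 1788 members, and orange lines are medians over all 140062 intervals. Members' medians sit between 7.20 and 15.5 CPM in the 6 negative libraries and between 0.773 and 1.85 CPM in the 12 crest libraries.

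The same separation showed in the share of each library's reads that fell in the members. In HH18 negative cells they took 3.22%, 2.86% and 1.53% of reads in replicates 1 to 3, and in HH25 negative cells 1.96%, 3.00% and 1.87%. In double-positive cells the share was 0.308% to 0.324% at HH18 and 0.370% to 0.405% at HH25. In E2-only cells it was 0.256% to 0.297% at HH18 and 0.392% to 0.402% at HH25. The crest libraries of a group lay close together, while the negative libraries of a stage spread over a wider range.

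The lowest of the 3 negative libraries was above the highest of the 6 crest libraries at 1676 members at HH18, where 13.8% of all intervals show this, and at 1747 members at HH25, where 6.35% do. Both held at 1637 members, against 2.63% of all intervals. These counts follow from the rule and are given as a description. The edgeR fit called 1747 members higher in negative than in double-positive cells at HH18 (13.7% of all intervals tested) and 1767 higher than in E2-only cells (14.8%). At HH25 it called 1783 (9.79%) and 1787 (5.14%). Since the rule chose these contrasts, nothing is read from the counts.

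The HH25 ratios were the narrow gate of the rule. At HH18 11531 intervals met both ratios and at HH25 2597 did, so that the members were 15.5% of the first group and 68.8% of the second. Single ratios of at least 2 were met by 20501 intervals against HH18 double-positive, 20420 against HH18 E2-only, 8316 against HH25 double-positive and 3471 against HH25 E2-only cells. Among members the median ratio was 5.30 and 6.09 at HH18 and 4.03 and 4.04 at HH25, in each case against double-positive and then E2-only cells. The smallest of the 4 ratios had a median of 3.30 and reached 3 in 1030 members, 5 in 376 and 10 in 30. It was a HH25 ratio in most members: the E2-only one in 699 and the double-positive one in 681, against 263 and 145 for the HH18 double-positive and E2-only ratios.

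At the threshold, the members just inside it were the intervals on chromosome 8 from 2534663 to 2534863, on chromosome 1 from 64826234 to 64826434 and on chromosome 6 from 31938953 to 31939153. The first of these had 7.21, 1.01 and 7.20 CPM in the HH18 negative libraries, with the lowest value in the shallowest library. Just outside lay the intervals on chromosome 12 from 9670170 to 9670370, on chromosome 3 from 97004416 to 97004616 and on chromosome 3 from 93884919 to 93885119. The smallest ratios of all 6 round to the threshold itself, and their negative means spanned 3.68 to 10.6 CPM at HH18 and 3.73 to 6.72 CPM at HH25. Of the members at high negative levels described below, 3 were also near the threshold, with smallest ratios of 2.09, 2.15 and 2.21. With TMM-scaled totals their smallest ratios were 1.80, 1.88 and 1.91, under the threshold.

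The member with the largest smallest ratio, 17.8, was the interval on chromosome 2 from 115598774 to 115598974. Its values in HH18 negative replicates 1 to 3 were 75.5, 62.5 and 21.6 CPM, and in HH25 negative replicates 56.1, 84.5 and 44.1 CPM. Double-positive libraries held 0.288, 2.00 and 2.98 CPM at HH18 and 2.68, 1.44 and 1.85 CPM at HH25. E2-only libraries held 2.15, 0.387 and 2.49 CPM at HH18 and 2.58, 2.19 and 2.74 CPM at HH25. Every negative library was far above every crest library, and the negative mean was 53.2 ± 28.1 CPM (SD, n = 3) at HH18 and 61.6 ± 20.7 CPM at HH25. This interval also had the highest HH25 negative level of all members.

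The next was on chromosome 2 from 19708863 to 19709063, with a smallest ratio of 14.4. It held 68.8, 41.3 and 18 CPM in HH18 negative and 35.3, 48.8 and 31.3 CPM in HH25 negative libraries. Its crest values ran from 0.249 CPM, in HH25 E2-only replicate 3, to 2.88 CPM, so that no crest library came near the lowest negative one. The interval on chromosome 1 from 182651084 to 182651284, at 14.3, held 54.4, 65.5 and 20.2 CPM in HH18 negative and 35.4, 59.5 and 35.6 CPM in HH25 negative libraries. Its 12 crest values ran from 0.333 to 2.58 CPM. The remaining 5 of the 8 largest lay on chromosome 3 from 97239642 to 97239842 (13.5), on a random contig of chromosome 2 from 5099 to 5299 (13.1), on chromosome 5 from 58895213 to 58895413 (13.1), on chromosome 4 from 9563820 to 9564020 (13.0) and on chromosome 3 from 26644659 to 26644859 (12.6). In all 8 intervals the lowest HH18 negative library was replicate 3 and the highest HH25 negative library was replicate 2. The stage difference in negative cells was called in none of the 8 (edgeR adjusted p from 0.332 to 0.992).

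**Figure D2:**
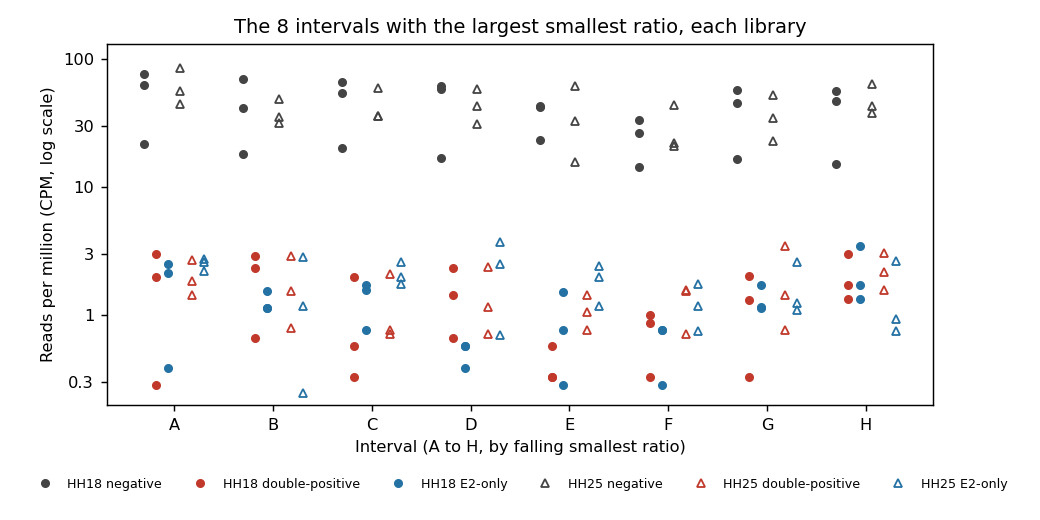
CPM (log scale) of each of the 18 libraries at the 8 members with the largest smallest ratio, lettered A to H in falling order from 17.8 to 12.6; filled circles are HH18 and open triangles HH25, in grey for negative, red for double-positive and blue for E2-only cells. All negative points lie at 14.4 CPM or above and all crest points at 3.73 CPM or below.

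At several of the members highest in negative cells the crest levels were high as well, but not at all of them. The interval on chromosome 2 from 115598774 to 115598974, described above, had crest means of 1.67 to 2.50 CPM. On chromosome 3 from 96204409 to 96204609 the HH18 negative mean was 55.3 CPM and the crest means were 7.61 to 9.57 CPM, with a smallest ratio of 5.02. The interval on chromosome 3 from 52752449 to 52752649 had the highest HH18 negative level, 103, 94.7 and 44.6 CPM, but held 39.3, 37.9 and 30.8 CPM in HH18 E2-only and 13.5, 12.6 and 13.9 CPM in HH18 double-positive libraries. At HH25 its negative libraries held 46.2, 69.3 and 42.1 CPM and its crest libraries 4.98 to 8.28 CPM. The interval on chromosome Z from 57409238 to 57409438 held 96.3, 90.7 and 45.0 CPM in HH18 negative cells and 24.1 to 34.1 CPM in the 6 HH18 crest libraries. At HH25 its negative libraries held 54.9, 73.3 and 50.1 CPM and its crest libraries 14.9 to 22.3 CPM. Its level was thus above the median of all intervals in every group, and highest in negative cells. On chromosome 3 from 35291381 to 35291581 the negative mean was 62.1 ± 17 CPM (SD, n = 3) at HH18 and the double-positive mean 28.3 ± 2.15 CPM. On chromosome 2 from 143805254 to 143805454 the HH25 negative mean was 51.9 ± 8.96 CPM and the double-positive libraries held 34.5, 24.5 and 9.78 CPM, which overlap no negative value but differ widely among themselves; without the third of them its smallest ratio was 1.73, under the threshold of the rule. Across members the group means of the negative cells at the 2 stages had a Spearman correlation of 0.698 over 1788 intervals, where all intervals have 0.651; these points share their libraries and their scaling.

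The members moved together between replicates of the negative cells. HH18 negative replicate 3 was the lowest of its 3 libraries at 1461 members (81.7%), where it was the lowest at 30.5% of all intervals. HH25 negative replicate 2 was the highest of its 3 at 1493 members (83.5%), where it was the highest at 28.2% of all intervals. Both held at 1269 members (71.0%), against 9.34% of all intervals. The median log2 difference from the mean of the other libraries was -0.93 for HH18 replicate 3 and 0.59 for HH25 replicate 2, where all intervals had -0.0027 and -0.078. The rule used the mean of each group and not the order of its libraries, but the order was looked at only after the values were seen and carries no test.

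The crest libraries showed no order of that size. The share of members at which a crest library was the lowest of its group ran from 24.4% to 42.8%, beside 29.6% to 35.7% for all intervals. The share at which it was the highest ran from 23.4% to 44.5%, beside 29.2% to 37.6%. Crest counts were low, with 4.98% to 31.5% of members at the lowest deposited count in a library, beside 1.10% to 10.2% of all intervals. A similar shift could therefore be hidden there. At 539 intervals of the opposite kind both crest populations were at least 2 times the negative value at both stages. Among these HH18 negative replicate 3 was the lowest at 28.6% and the highest at 36.9%, with medians of 4.16, 3.02 and 4.68 CPM in replicates 1 to 3. HH25 negative replicate 2 was the highest at 20.6% of them and the lowest at 44.7%, with medians of 2.88, 2.00 and 2.17 CPM. HH18 negative replicate 3 had 2777640 reads, a total between those of replicates 1 and 2. What sets these libraries apart at the members was not tested.

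Between the stages, more members fell than rose in negative cells, and that balance depended on single libraries. The mean CPM was higher at HH18 in 1061 members and at HH25 in 727, and at 1602 members (89.6%) the 2 means were within a factor of 2, against 70.0% of all intervals. The rule asks for a high negative mean at both stages, which favours similar means, so these counts are a description. The edgeR quasi-likelihood test with Benjamini-Hochberg adjustment called 80 members higher at HH25, where 12.1% of all intervals were called, and 219 lower, where 11.9% were. The members' share of higher calls was 4.47% and that of lower calls 12.2%. Their median log2 change was -0.13, where all intervals had -0.01. The split rested on single libraries. The nearness of the share of lower calls to that of all intervals did not hold without them. With every library kept it held under some settings and not under others. DESeq2 called 4.92% of members lower, against 9.67% of all intervals, and the legacy quasi-likelihood fit 7.89%, against 11.0%. With the replicate number as a block the members' share was the larger one, 14.8% against 11.7%. Median-of-ratios factors gave 12.5% against 12.2%, library totals 12.1% against 11.7% and no filter on low counts 12.7% against 12.1%. Without HH18 negative replicate 1 there were 105 higher and 40 lower (2.24%, against 7.56% of all intervals). Without HH18 negative replicate 3 there were 39 and 424 (23.7%, against 8.84%), and without HH25 negative replicate 2 26 and 404 (22.6%, against 10.5%). The rule used the means of all 6 groups, so the shares of members called here and in the next 4 comparisons are set beside those of all intervals as a description.

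The largest rise among members without overlap was on chromosome 1 from 95307814 to 95308014. Its HH18 negative libraries held 1.66, 4.03 and 2.16 CPM and its HH25 negative libraries 11.0, 10.8 and 13.7 CPM, so all 3 later libraries were higher (log2 change 2.40, SE 0.42, edgeR adjusted p = 4.2e-06). On chromosome 2 from 121446690 to 121446890 the values were 2.22, 6.05 and 1.80 CPM at HH18 and 9.71, 14.4 and 11.3 CPM at HH25 (log2 change 2.16, SE 0.42, edgeR adjusted p = 3.65e-05). On chromosome 18 from 3802812 to 3803012 they were 3.33, 8.06 and 3.24 CPM at HH18 and 16.9, 15.4 and 14.7 CPM at HH25 (log2 change 1.96, SE 0.35, edgeR adjusted p = 8.72e-06). Their means were 2.62, 3.36 and 4.88 CPM at HH18 and 11.8, 11.8 and 15.7 CPM at HH25 (n = 3).

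The largest fall was on chromosome 2 from 3319042 to 3319242, from 27.5, 8.06 and 7.56 CPM to 3.24, 3.20 and 1.93 CPM (log2 change -2.54, SE 0.36, edgeR adjusted p = 2.23e-08). Here HH18 replicate 1 stood well above the other HH18 libraries, which in turn were above all 3 at HH25. On chromosome 1 from 3273501 to 3273701 the values went from 21.9, 9.07 and 11.2 CPM to 2.88, 3.60 and 2.41 CPM (log2 change -2.39, SE 0.33, edgeR adjusted p = 1.1e-08). On chromosome 2 from 140827533 to 140827733 they went from 25.5, 22.2 and 13.7 CPM to 3.42, 3.80 and 6.02 CPM (log2 change -2.25, SE 0.31, edgeR adjusted p = 1.66e-08). The crest libraries of these 3 intervals stayed at or below 4.03 CPM at both stages. All 6 calls remained when any 1 negative library was left out.

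**Figure D3:**
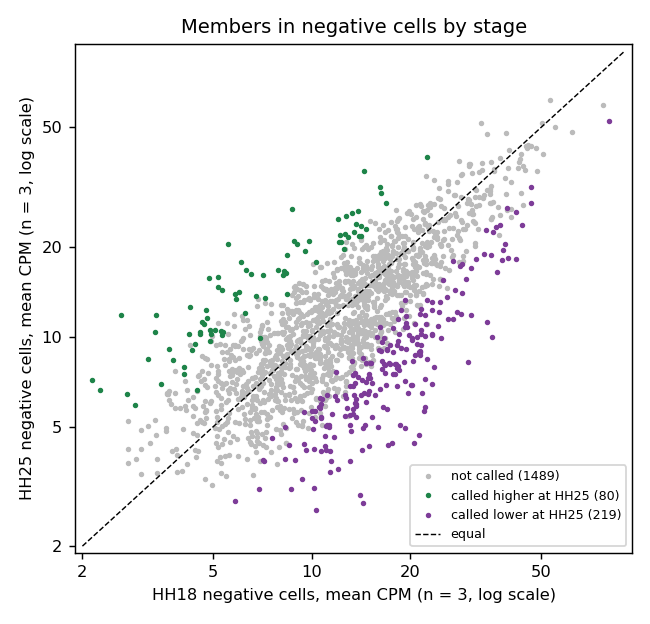
Mean CPM of the 1788 members in HH18 (x axis) and HH25 (y axis) negative cells, both on log scales with 3 libraries a mean; green points were called higher at HH25 (80), purple points lower (219), grey points were not called (1489), and the dashed line marks equal levels. The called members lie along both edges of a cloud that follows the line of equal levels.

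In E2-only cells the members' low level rose between the stages at more intervals than it fell. The test called 211 members higher at HH25 (11.8%, where 27.6% of all intervals were called higher) and 82 lower (4.59%, where 29.2% were). Both shares were below the background, but the members' median log2 change was 0.48 and that of all intervals 0.00. Under library totals alone, a scaling that moves the median of all intervals to 0.32, the counts were 373 and 47 and the members' median 0.80. Leaving out any 1 E2-only library gave 166 to 239 higher and 50 to 60 lower calls, and moved the median of all intervals to 0.11 to 0.14. All intervals then had 26.3% to 28.4% higher and 23.8% to 25.7% lower calls. The members' share of reads was 0.277% ± 0.0206 at HH18 and 0.397% ± 0.00482 at HH25 (SD, n = 3), without overlap between the libraries of the 2 stages. A share of reads is scaled by library totals. On that scale the median of all intervals in E2-only cells rose too, from 3.56 to 4.57 CPM, so this rise is not particular to the members.

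The largest of these rises was again on chromosome 1 from 95307814 to 95308014, from 0.287, 0.387 and 0.191 CPM to 3.05, 4.83 and 4.49 CPM in E2-only cells (log2 change 3.47, SE 0.67, edgeR adjusted p = 4.71e-06). On chromosome 4 from 89128718 to 89128918 the values went from 0.430, 1.93 and 0.191 CPM to 5.63, 7.90 and 7.23 CPM (log2 change 3.11, SE 0.56, edgeR adjusted p = 9.34e-07), while the negative level there was 24.2 ± 9.86 CPM at HH18 and 22.4 ± 7.92 CPM at HH25 (SD, n = 3). On chromosome 5 from 53067896 to 53068096 all 3 HH18 E2-only libraries were at the lowest deposited count. The summed counts, scaled by read totals, gave a ratio of 14.6 (95% counting interval 4.63 to 73.9). Such a counting interval pools the libraries of a group and holds no spread between replicates. The rise was not called after thinning to the lowest total (edgeR adjusted p = 0.257).

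Among the falls, the interval on chromosome 3 from 52752449 to 52752649 went from 39.3, 37.9 and 30.8 CPM to 6.33, 7.02 and 4.98 CPM in E2-only cells (log2 change -2.86, SE 0.26, edgeR adjusted p = 1.48e-16). Its negative level fell less, by 0.60 on the log2 scale (SE 0.19, edgeR adjusted p = 0.0145); the difference between these changes was not tested. An interval on a random contig of chromosome 7 from 9834 to 10034 went from 4.01, 8.89 and 6.88 CPM to 0.234, 1.54 and 0.748 CPM (log2 change -3.09, SE 0.53, edgeR adjusted p = 3.69e-07). On chromosome 1 from 42557849 to 42558049 the HH25 libraries were all at the lowest deposited count. Scaled by read totals, the summed HH18 counts were 7.52 times as high as those at HH25 (95% counting interval 2.31 to 38.8).

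In double-positive cells 59 members were called higher at HH25 (3.30%, where 16.3% of all intervals were) and 36 lower (2.01%, where 18.4% were). The members' median log2 change was 0.19 and that of all intervals -0.05. At an adjusted p below 0.01 the counts were 12 and 16, so the balance turned. With library totals alone the median of all intervals was 0.14 and the counts were 97 and 24. Leaving out any 1 double-positive library gave 28 to 48 higher and 21 to 30 lower calls. All intervals then had 13.5% to 15.3% and 13.8% to 14.9%. On chromosome 3 from 109463151 to 109463351 the values rose from 0.575, 0.666 and 0.331 CPM to 3.45, 2.52 and 5.55 CPM (log2 change 2.67, SE 0.71, edgeR adjusted p = 0.00176), and the negative level rose there as well, from 4.16, 7.05 and 4.32 CPM to 16.7, 14.2 and 13.0 CPM (log2 change 1.65, SE 0.34, edgeR adjusted p = 0.000116). A further 2 intervals, on chromosome Z from 57268447 to 57268647 and on chromosome 21 from 6408978 to 6409178, had every HH18 double-positive library at the lowest count. Their ratios of pooled counts, scaled by read totals and without spread between replicates, were 9.33 (95% counting interval 2.87 to 48.0) and 7.60 (2.28 to 39.7). Neither was called after thinning (edgeR adjusted p = 0.177 and 0.0968), and the second was not called when any of the 3 HH18 libraries, or HH25 replicate 3, was left out.

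The largest falls with counts at both stages were on chromosome 3 from 35291381 to 35291581, from 30.8, 27.0 and 27.1 CPM to 4.98, 6.84 and 6.61 CPM (log2 change -2.38, SE 0.27, edgeR adjusted p = 8.54e-12), and on chromosome 1 from 8374946 to 8375146, from 5.46, 3.00 and 6.29 CPM to 2.68, 0.360 and 0.529 CPM (log2 change -2.33, SE 0.59, edgeR adjusted p = 0.00108). The second was not called after thinning (edgeR adjusted p = 0.149). At the first of these the negative libraries held 36.8 CPM or more at both stages, and E2-only cells fell as well (log2 change -1.74, SE 0.23, edgeR adjusted p = 2.17e-10). At the second the change in E2-only cells was not called (log2 change -0.32, edgeR adjusted p = 0.532). On chromosome 9 from 895342 to 895542 the 3 HH25 libraries were at the lowest count. Scaled by read totals, the summed HH18 counts were 7.72 times as high as those at HH25 (95% counting interval 2.34 to 40.0). After thinning the double-positive fall was not called (edgeR adjusted p = 0.18). E2-only cells fell there too (log2 change -2.65, SE 0.51, edgeR adjusted p = 4.95e-06).

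Some members were called across stages in more than 1 population, at smaller shares than all intervals in most of the counts below. Of the 80 members higher at HH25 in negative cells, 39 (48.75%) were also higher in E2-only cells, where 79.6% of all intervals so called were. They are 18.5% of the 211 members called there, where the share over all intervals was 34.9%. None of the 80 was lower in E2-only cells, where 1.46% of all intervals so called were. Of the 219 lower in negative cells 24 (11.0%) were lower in E2-only cells, against 71.0% of all intervals so called. These 24 are 29.3% of the 82 members lower in E2-only cells, beside 28.9% for all intervals. Another 6 of the 219 (2.74%) were higher in E2-only cells, against 5.03% of all intervals so called. Between negative and double-positive cells 15 members were higher in both, which is 18.75% of 80 and 25.4% of 59, where all intervals gave 48.8% and 36.1%. A further 14 were lower in both, 6.39% of 219 and 38.9% of 36, where all intervals gave 46.8% and 30.2%. Lower in negative and higher in double-positive cells was 1 member, 0.457% of 219, where all intervals gave 2.25%. Between the crest populations 28 members were higher in both, 47.5% of 59 and 13.3% of 211, where all intervals gave 73.6% and 43.6%. In the same populations 13 were lower in both, 36.1% of 36 and 15.9% of 82, where all intervals gave 57.5% and 36.2%. No member moved in opposite directions. Of all intervals higher in double-positive cells 1.24% were lower in E2-only cells, and of those lower 8.54% were higher. The rule caps both crest levels by the negative level of the same stage, so these overlaps are not free of it.

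Few members told the crest populations apart. At HH18 85 members were called higher in double-positive than in E2-only cells (4.75%, where 17.7% of all intervals were) and 32 lower (1.79%, where 17.9% were). The members' median log2 difference was 0.33 and that of all intervals 0.00. Without HH18 E2-only replicate 1 the counts were 55 and 16, where all intervals had 15.9% and 14.8%. Without HH18 E2-only replicate 3 51 were higher (16.1% of all intervals), and without HH18 double-positive replicate 2 21 were lower (14.5%). With no filter on low counts, 62 were higher and 49 lower, while the median of all intervals moved to -0.11. At HH25 18 members were called higher in double-positive cells (1.01%, where 8.49% of all intervals were) and 5 lower (0.280%, where 3.17% were). The excess of higher calls depended on scaling, and that over all intervals narrowed too. Under library totals 7 members were higher and 8 lower, where all intervals had 6.80% and 5.15%. Under median-of-ratios factors 8 were higher and 7 lower, where all intervals had 7.20% and 4.40%. Leaving out any 1 of the 6 HH25 crest libraries left 3 to 8 higher and 0 to 5 lower. All intervals then had 5.77% to 6.76% and 1.85% to 2.72%. The difference between the crest populations changed with stage at few members: the interaction term called 13 higher at HH25 (0.727%, where 8.95% of all intervals were) and 32 lower (1.79%, where 9.23% were). At both stages 2 members were higher in double-positive cells, 2.35% of the 85 and 11.1% of the 18, where all intervals gave 33.1% and 69.2%.

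At HH18 the interval on chromosome 2 from 101181356 to 101181556 held 8.91, 7.66 and 5.30 CPM in double-positive and 0.860, 1.16 and 0.191 CPM in E2-only libraries (log2 difference 3.38, SE 0.55, edgeR adjusted p = 1.73e-07). Its negative libraries held 26.4, 22.2 and 9.00 CPM, so the double-positive cells lay between. On chromosome 3 from 8076075 to 8076275 double-positive libraries held 3.45, 2.66 and 2.98 CPM and E2-only libraries 0.143, 0.387 and 0.574 CPM (log2 difference 3.05, SE 0.79, edgeR adjusted p = 0.000931), under a negative level of 31.1 ± 12.1 CPM (SD, n = 3). After thinning all libraries to the lowest total it was not called (edgeR adjusted p = 0.0792). On chromosome 2 from 121362811 to 121363011 all E2-only libraries were at the lowest count. The ratio of summed counts, scaled by read totals, was 10.4 (95% counting interval 3.08 to 54.5).

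The opposite order held on a random contig of chromosome 1 from 665 to 865, with 0.288, 1.33 and 1.66 CPM in double-positive and 4.87, 4.64 and 5.74 CPM in E2-only libraries (log2 difference -2.27, SE 0.56, edgeR adjusted p = 0.000532). On chromosome 4 from 12120520 to 12120720 the values were 0.575, 1.33 and 0.331 CPM against 4.87, 3.87 and 2.10 CPM (log2 difference -2.29, SE 0.62, edgeR adjusted p = 0.00162). On chromosome Z from 81725985 to 81726185 the log2 difference of -2.11 (SE 0.70, edgeR adjusted p = 0.0116) was not called without HH18 double-positive replicate 1 (-2.04) or without HH18 E2-only replicate 1 (-1.45).

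At HH25 the 6 named intervals, the 3 largest calls without overlap in each direction, all lost their call when at least 1 crest library was left out. The largest, on chromosome 19 from 4468639 to 4468839, held 9.20, 2.16 and 1.06 CPM in double-positive and 0.469, 0.439 and 0.997 CPM in E2-only libraries (log2 difference 2.65, SE 0.71, edgeR adjusted p = 0.00655), and without double-positive replicate 1 the difference was 1.34 and not called. The interval on chromosome 15 from 2080388 to 2080588 (log2 difference 2.33, edgeR adjusted p = 0.0333) lost its call without any 1 of the 6 libraries. The call on chromosome 18 from 9245487 to 9245687 (2.31, edgeR adjusted p = 0.0269) ended with 4 of the 6 left out singly. In the other direction lay the intervals on chromosome 24 from 965640 to 965840 (-2.30, edgeR adjusted p = 0.036), on chromosome 1 from 40468512 to 40468712 (-1.47, edgeR adjusted p = 0.0324) and on chromosome 4 from 89128718 to 89128918 (-1.46, edgeR adjusted p = 0.0269), and each of these calls ended with 4 of the 6 libraries left out singly.

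**Figure D4:**
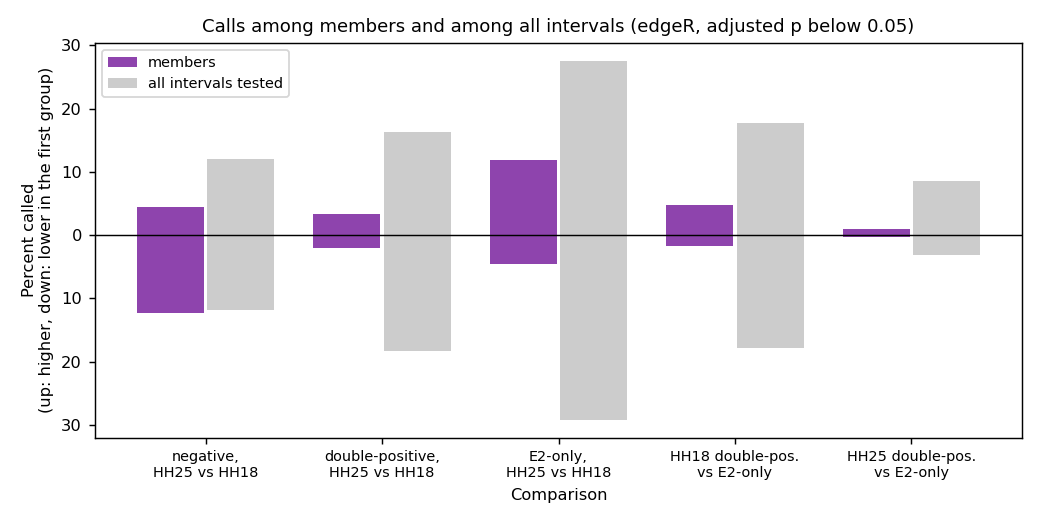
Percent of the 1788 members (purple) and of all 134020 intervals tested (grey) called by edgeR at an adjusted p below 0.05 in the 5 comparisons that are not among the ratios of the rule, upward for higher and downward for lower in the first-named group. Members' bars are shorter than the grey ones in every comparison and direction but one, negative cells lower at HH25, where 12.2% stand beside 11.9%. With DESeq2, not drawn, the members' share was the smaller one there too, 4.92% beside 9.67%. With the replicate number as a block, also not drawn, it was the larger one, 14.8% beside 11.7%.

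In all, 1168 members (65.3%) were called in none of these 5 comparisons, where 23.6% of all intervals were called in none; the rule shaped the group means that enter them. Crest counts at members were low, as the shares at or below the floor show, and the part of low counts in the smaller shares of calls was not tested.

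Members were spread over the genome. Their share of the intervals was 1.29% for chromosomes 1 to 5, 1.27% for 6 to 10, 1.46% for 11 to 33 and 1.39% for Z. On unplaced or random contigs 43 of 8471 intervals (0.508%) were members, and on W 1 of 105. Of chromosomes with at least 200 intervals, 26 had the largest share (25 of 961, 2.60%), then 19 (36 of 1655, 2.18%) and 14 (44 of 2289, 1.92%), and chromosome 33 the smallest (1 of 298, 0.336%).

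**Figure D5:**
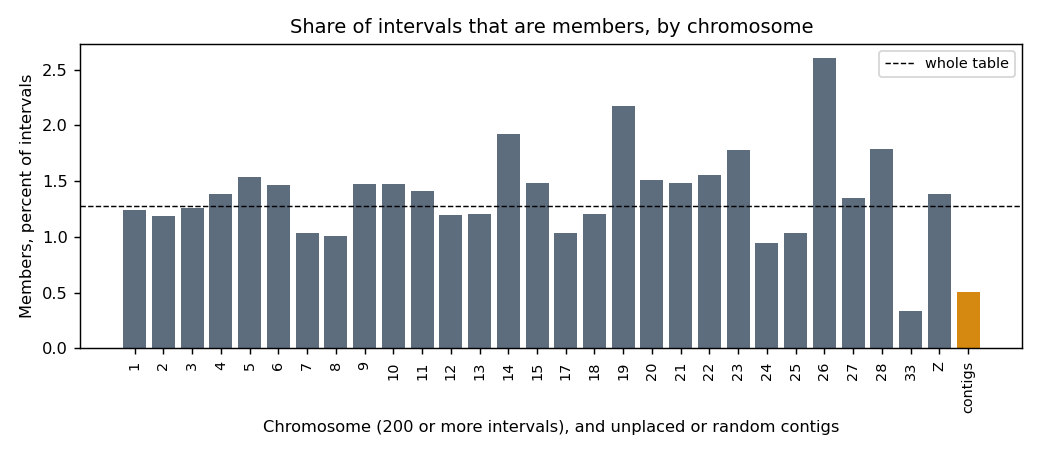
Members as a percent of all intervals on each chromosome with at least 200 intervals (grey) and on unplaced or random contigs (orange); the dashed line is the whole table, 1.28%. Most chromosomes lie near the line, chromosome 26 reaches 2.60% and the contigs 0.508%.

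Members were often near one another. Within 10 kb of a member's start another member started for 363 of them (20.3%), while a member started that near to 3.17% of the other intervals. Members had slightly more neighbours of any kind within that distance, 2.97 against 2.55 for other intervals, and 8.65% of members' neighbours were members against 1.38% of the others' neighbours. When members were chained while the next started within 50 kb, 1034 (57.8%) stood alone, 754 were in runs of 2 or more, and 93 runs held 3 or more. Intervals in a run share their surroundings and are not independent examples.

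The 4 runs with the most members, the shorter first where numbers were equal, held 8 or 6 members each. A further run of 6 was wider and is not described. On chromosome 14 from 12136434 to 12226126, 8 of the 18 intervals were members, with smallest ratios of 2.06 to 7.94. Their group means ran from 8.43 to 23.0 CPM in HH18 negative and from 7.14 to 27.2 CPM in HH25 negative cells, and were at most 4.69 CPM in any crest group. The median over these 8 members was 14.2, 11.1 and 7.56 CPM in HH18 negative replicates 1 to 3 and 9.89, 23.7 and 13.4 CPM in HH25 negative replicates 1 to 3. As over the whole set, HH18 replicate 3 was the lowest and HH25 replicate 2 the highest. The 10 other intervals of this stretch had smallest ratios of 0.126 to 1.31. The strongest member, from 12156736 to 12156936, had group means of 23.0 CPM at HH18 and 27.2 CPM at HH25 in negative cells and of 0.744 to 2.46 CPM in the crest groups.

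On chromosome 2 from 64911133 to 65049933, 8 of 34 intervals were members, with smallest ratios of 2.02 to 9.62. Its first 2 members lay close together and differed in their crest levels. From 64911133 to 64911333 the group means were 22.4 and 39.8 CPM in HH18 and HH25 negative cells and 6.69 to 15.3 CPM in the crest groups. From 64912836 to 64913036 they were 30.1 and 37.2 CPM in negative cells and 1.58 to 2.83 CPM in the crest groups.

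On chromosome 1 from 194536279 to 194574972, 6 of 10 intervals were members, the largest share of the 4 runs. All 6 were at 8.17 CPM or more in HH18 negative and 11.0 CPM or more in HH25 negative cells on the group mean, and at most 2.92 CPM in any crest group. The 4 other intervals had smallest ratios of 0.342 to 1.23. On chromosome 4 from 39792259 to 39839431, 6 of 13 intervals were members, with group means of 8.96 to 18.5 CPM in HH18 negative and 7.32 to 15.2 CPM in HH25 negative cells and at most 3.23 CPM in any crest group. The genes in these stretches were not analysed here.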

How the data were processed

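ATAC-seq libraries of double-positive, E2-only and negative cells at HH18 and HH25 were used, 3 in each of 6 groups. Per the labels' protocols, tagmentation took 20 min, PCR ran for 11 cycles, and sequencing gave read pairs of 40 bp. The values deposited by the authors are whole-number counts of reads over 140062 intervals, not normalized. Bowtie 1.0.0, MACS2, HOMER 4.7 and the build galGal5 appear, with no roles, per the submitters' processing notes. The choice of intervals and the handling of duplicates, mitochondrial reads and the transposase offset stand in none of these notes and are not given in the sources used. Coordinates appear as listed, with no statement on their first base being 0 or 1. Columns were matched to samples by name, and 9 further columns of per-sample values, whose stage is not that of any label, were left out. Motif, sequence and nearest-gene steps were not made, since no genome of that build was used.

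Printed CPM values are read counts per 1000000 of the column total. The test was edgeR 4.0.16 in R 4.3.3: filterByExpr left 134020 intervals, TMM scaling was applied, and 1 quasi-likelihood model with a robust prior and 1 mean per group was fitted to all 18 libraries. Benjamini-Hochberg adjustment ran over all tested intervals, and an adjusted p below 0.05 was a call. Log2 changes are those of the model, and standard errors were derived from its F statistic. Where every library of a group was at the lowest count, the ratio of summed counts is given instead, scaled by the summed read totals of the groups. Its 95% counting interval pools the libraries of a group and holds no spread between replicates. DESeq2 1.42.0, other scalings, no filter, thinning to the lowest total, a replicate block and leaving out each library were alternatives.

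The members, the named intervals and the comparisons were chosen with earlier results of these data known. Named intervals were the 8 members with the largest smallest ratio, the 4 highest in negative cells at each stage, the 3 higher and 3 lower called members with the largest change and no overlap in each of 5 comparisons, 2 each way for the interaction, 3 on each side of the threshold and the 4 runs with the most members, the shorter span first in ties.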

Additional observations from a re-analysis of the deposited data

Results flagged for a closer look

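The difference between double-positive and E2-only cells changed with stage at some members, by the interaction term of the edgeR fit. At 13 members the log2 difference was higher at HH25 than at HH18, where 8.95% of all intervals were called, and at 32 it was lower, where 9.23% were; the members' shares were 0.727% and 1.79%. Their median interaction was -0.22, and that of all intervals 0.03. Leaving out 1 crest library gave 3 to 11 higher and 15 to 39 lower. The lower calls were 15 without HH18 E2-only replicate 1, 21 without HH18 E2-only replicate 3 and 21 without HH25 double-positive replicate 3. The higher calls were 5 and 8 without HH18 double-positive replicates 2 and 3, 7 and 7 without HH18 E2-only replicates 1 and 3, 4 and 7 without HH25 double-positive replicates 1 and 2, and 3 without HH25 E2-only replicate 1.

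The largest positive interaction, 3.36 on the log2 scale (SE 1.17, edgeR adjusted p = 0.0325), was on chromosome 11 from 11199619 to 11199819. Double-positive libraries held 0.288, 1.33 and 0.993 CPM at HH18 and 0.383, 1.80 and 3.70 CPM at HH25, and E2-only libraries 1.15, 0.773 and 2.49 CPM and then 0.234, 0.658 and 0.249 CPM. The libraries of the populations overlapped at both stages, and the call ended when any of 6 libraries was left out, and after thinning to the lowest total (edgeR adjusted p = 0.148). On chromosome Z from 81725985 to 81726185 the interaction was 3.11 (SE 1.02, edgeR adjusted p = 0.0228), from double-positive means of 0.634 and 1.74 CPM and E2-only means of 2.62 and 0.912 CPM at HH18 and HH25 (n = 3); the call ended without any of 5 libraries.

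The largest negative interaction, -4.44 (SE 1.07, edgeR adjusted p = 0.00144), was on chromosome 6 from 32181056 to 32181256. Double-positive libraries went from 0.575, 3.33 and 3.31 CPM to 0.767, 1.08 and 0.793 CPM, and E2-only libraries from 0.143, 0.773 and 0.191 CPM to 2.34, 1.75 and 4.24 CPM, so the order of the group means turned. At HH18 the libraries of the populations overlapped, although their difference was called (log2 2.96, edgeR adjusted p = 0.00243). At HH25 they did not overlap, but the difference was not called (log2 -1.49, edgeR adjusted p = 0.15). The interaction call held without any 1 library. On chromosome 3 from 99942630 to 99942830 the interaction was -3.78 (SE 1.21, edgeR adjusted p = 0.0188), with double-positive means of 1.59 and 0.672 CPM and E2-only means of 0.417 and 2.30 CPM, and it was not called without HH18 E2-only replicate 1 (-3.65) or after thinning (edgeR adjusted p = 0.248).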

How the results depend on the processing

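The number of member intervals was 3705 with a ratio of at least 1.5, 1030 with a ratio of at least 3 and 650 where every negative library had to be 2 times every crest library. It was 1744 with TMM-scaled totals, 2043 and 1487 with 0.5 or 2 CPM added, 1942 with every count less 1, 1858 after thinning (1526 shared) and 1645 to 1872 with 1 library left out. After thinning to the lowest total the smallest ratio on chromosome 6 from 31938953 to 31939153 was 0.922, with negative cells below a crest group. Counts below are higher, then lower, in the first-named group. The share of all intervals called moved with these settings too, also with 1 library left out. A change in a count is therefore not by itself a result about the members. For HH25 against HH18 negative cells they were 33 and 140 at an adjusted p below 0.01, 24 and 88 with DESeq2, 23 and 92 after thinning, 41 and 141 with the legacy quasi-likelihood fit, an alternative chosen after seeing the data, and 26 to 115 and 40 to 424 with 1 library left out. Over all intervals the shares were 7.35% and 7.18% at 0.01 and 8.41% and 9.67% with DESeq2. After thinning they were 7.57% and 9.78%, and with the legacy fit 10.7% and 11.0%. For HH18 double-positive against E2-only cells they were 27 and 10 at 0.01, 62 and 49 without a filter, 21 and 17 after thinning, 134 and 47 with the legacy fit, and 51 to 90 and 16 to 27 with 1 library left out. For HH25 double-positive against E2-only cells they were 1 and 0 at 0.01, 8 and 7 with median-of-ratios factors, 7 and 8 with library totals, 10 and 6 without a filter, 8 and 7 with DESeq2, 3 and 2 after thinning, 26 and 8 with the legacy fit, and 3 to 8 and 0 to 5 with 1 library left out. For double-positive cells across stages the counts were 12 and 16 at 0.01, which turns the balance, 97 and 24 with library totals, 30 and 12 after thinning, 93 higher with the legacy fit, and 28 to 48 and 21 to 30 with 1 library left out. Here all intervals had 10.7% and 13.0% at 0.01 and 20.8% and 14.2% with library totals. After thinning they had 18.4% and 17.2%, and 16.2% were higher with the legacy fit. For E2-only cells across stages they were 93 and 50 at 0.01, 373 and 47 with library totals, 84 and 23 after thinning, and 166 to 239 and 50 to 60 with 1 library left out. The background was 22.0% and 24.6% at 0.01, 35.9% and 22.6% with library totals and 22.8% and 23.9% after thinning. For the interaction they were 2 and 4 at 0.01, 7 and 47 with library totals, 2 and 4 after thinning, 20 and 51 with the legacy fit, and 3 to 11 and 15 to 39 with 1 library left out. Its shares over all intervals were 4.46% and 5.15% at 0.01 and 7.26% and 10.9% with library totals. After thinning they were 5.22% and 5.51%, and with the legacy fit 8.50% and 8.60%. Thinning tested 55446 intervals with 1124 members; other causes were not tested. Of the named log2 changes, 10 of 34 were not called at 0.01 and 1 of 34 with DESeq2. Thinning ended 11 of the calls it could test and left 10. None of these changes turned in sign.

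Whether the replicate numbers of the labels pair the libraries was not settled. Same-numbered libraries of a stage had correlations of -0.0301 to 0.103 in their deviations from the group means. Those of different number had -0.0816 to 0.0614. Counting error at low counts weakens such correlations, so they cannot exclude pairing. With the number as a block, negative cells across stages had 66 and 265 calls (3.69% and 14.8%, against 11.8% and 11.7% of all intervals). The crest populations had 101 and 37 at HH18 (5.65% and 2.07%, against 17.7% and 17.96%). At HH25 they had 27 and 7 (1.51% and 0.391%, against 8.48% and 3.18%). Double-positive cells across stages had 73 and 38 (4.08% and 2.13%, against 16.4% and 18.5%). E2-only cells had 201 and 90 (11.2% and 5.03%, against 27.5% and 29.1%). The interaction had 14 and 36 (0.783% and 2.01%, against 9.03% and 9.17%). Only the lower calls in negative cells were above the share of all intervals.

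Depth limits low values: 3 counts in HH18 negative replicate 2 were 3.02 CPM, and 3 counts in the shallowest crest library, HH18 E2-only replicate 2, were 1.16 CPM, where the members' medians in crest groups were 0.975 to 1.75 CPM, so members near the floor cannot be ranked among themselves.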
